A study of Mus musculus with 6 samples.

Results

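The solute carrier (Slc) genes were followed in glomeruli, the kidney's filtering tufts of capillaries, of 8-week-old male CD1 IGS outbred mice. Members were the rows whose name starts with Slc and a number and that had at least 300 read counts in the bulk RNA-seq library of whole isolated glomeruli. Slc12a1, Slc12a3 and Slc34a1 were left out by the rule. This gave 178 genes of the 379 Slc rows and of 49492 gene rows in all, from 40 numbered families. The whole-glomeruli library was made from 500 ng of total RNA. A second bulk library came from dissociated glomerular cells that were fixed in 80% methanol and sorted, with 95 ng of total RNA. Single cells were measured with Drop-seq in 4 libraries (replicates 1 to 4) of dissociated, methanol-fixed glomerular cells. In Drop-seq each cell shares a droplet with a bead that carries a barcode, and transcripts are counted as unique molecular identifiers (UMIs). The labels name no genotype or treatment for any group. They tie no library to an animal, so a p-value here reflects the spread between these libraries only, and that spread may be technical.

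Solute carriers are membrane proteins that move ions, sugars, amino acids, nucleotides, vitamins, metals and drugs across the plasma membrane or the membranes of organelles, down a gradient or coupled to one. In the kidney they are best known for reabsorption and secretion along the tubule. The proximal tubule takes up amino acids, sugars and organic ions. The distal nephron fine-tunes salt and acid. The Slc25 family sits in the inner mitochondrial membrane. Of the 178 members, 5 are named after a carrier without being one, among them Slc9a3r2 and Slc9a3r1, scaffold proteins that bind a sodium-proton exchanger.

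The bulk libraries held 28407317 (whole) and 24555632 (dissociated) counts on genes. The Drop-seq tables held 3528543 to 6411775 UMIs per library. Of 15465 barcodes, 13993 were kept, with medians of 816 to 1156 UMIs per library. Clustering without any Slc gene gave 10373 podocyte-like, 1854 endothelial-like, 979 tubular-like, 414 parietal epithelial-like, 325 mural-like and 48 immune-like cells. Podocytes carry foot processes on the capillaries, and parietal cells line Bowman's capsule. The mural class was named from a joint list of mesangial, smooth muscle and renin cell markers. Its leading genes were Ren1, Acta2, Myh11 and Rgs5, of renin and smooth muscle cells, and whether it holds mesangial cells was not tested. Replicate 4 stood apart: 1340 of the 1537 cells of 1 podocyte-like cluster came from it. Podocyte markers held 1.45% ± 0.211 (SD, n = 4 libraries) of UMIs in parietal epithelial-like cells, against 2.18% ± 0.161 in podocyte-like cells and 0.446% ± 0.0531 in endothelial-like cells. Parietal markers held 0.0376% ± 0.0168 in parietal epithelial-like, 0.0129% ± 0.0027 in tubular-like and 0.00128% ± 0.00042 in podocyte-like cells. The leading genes of the parietal epithelial-like class (Cst12, Pcp4, Igfbp2 and Pla2g7) are not on the parietal marker list. Barcodes shared by libraries numbered 7 for pairs, 1 for triples and 7 for all 4, with 3, 0 and 0 among the kept cells.

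Per length, the most abundant member in whole glomeruli was Slc9a3r2, at 420 TMM-scaled CPM (counts scaled to library size) per kb of exon. It was followed by Slc25a5, an ADP/ATP carrier of mitochondria, at 160, and Slc6a6, the taurine transporter, at 111. Slc48a1, a heme transporter, reached 98.8 and Slc31a2, a copper transporter, 73.7. Slc12a2, the sodium-potassium-chloride cotransporter NKCC1, stood at 70.8, Slc43a3, a purine base transporter, at 63.7 and Slc25a4, another ADP/ATP carrier, at 63.5. The mitochondrial phosphate carrier Slc25a3 followed at 51.5 and Slc3a2, the shared heavy chain of several amino acid exchangers, at 47.0. These levels come from the library that chose the members and are a description. Just inside the threshold were Slc16a12 and Slc2a13 with 301 counts each and Slc25a53 with 305. Just outside were Slc2a4 with 296, Slc22a21 with 266 and Slc23a1 with 264.

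The comparison of the bulk libraries asks what dissociation, fixation and sorting did to the carriers' transcripts. It rests on 1 library per group, so it has no replicate check and no test, and the input RNA, fixation and cell makeup differ together and cannot be told apart. Since the members were chosen by their counts in the whole library, the counts below are a description. Called here means a difference of at least 2-fold (log2 ratio of 1 or more, prior count 2). Of the 178 members, 61 were lower and 10 higher in dissociated cells. Over all 9813 genes with at least 300 counts in whole glomeruli, 16.7% were lower and 9.34% higher. The members' median log2 ratio was -0.42, against 0.01 over all those genes. In bulk samples, fewer cells of a type and less RNA per cell cannot be told apart.

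The deepest differences were in carriers of the proximal tubule. Of 25 members on a list of proximal tubule carriers, 24 were called lower, with a median log2 ratio of -6.16, and the remaining one was at -0.92. Slc13a3, a dicarboxylate transporter, had 959 counts in whole glomeruli and 0 in dissociated cells, at least 224-fold lower against a floor of 3 counts in the dissociated library. Slc22a30, of the organic anion family, went from 550 counts to 0, at least 128-fold lower by the same floor. The sodium bicarbonate cotransporter Slc4a4 had 1240 counts in whole glomeruli and 1 in dissociated cells. The organic anion transporters Slc22a6 and Slc22a8 had 1594 and 613 counts against 4 and 1. Slc22a12, the urate transporter, had 1493 against 7, and Slc6a18, a neutral amino acid transporter, 1252 against 4. Slc17a1 and Slc17a3, organic anion transporters, had 645 and 913 counts against 3 and 5. Each of these 9 members had at least 550 counts in whole glomeruli and at most 7 in dissociated cells. Beside them, a list of 10 proximal tubule marker genes had a summed level of 1500 CPM in whole glomeruli and 39.5 in dissociated cells, with 10 of 10 at least 2-fold lower. Its part in the carriers' difference was not tested.

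**Figure D1:**
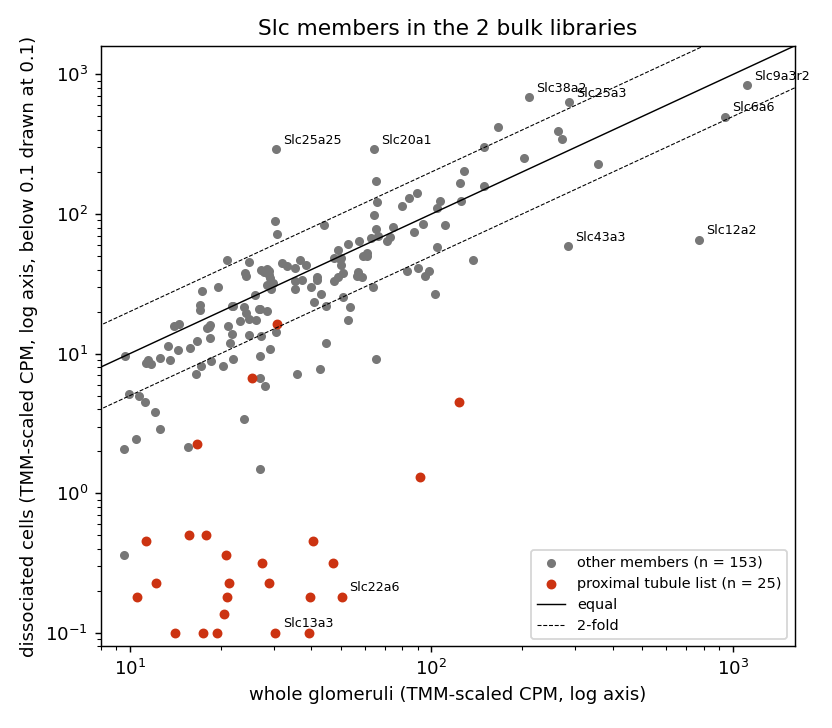
Level of each of the 178 members in the whole (x) and dissociated (y) bulk library, in TMM-scaled CPM on log axes, with values under 0.1 CPM drawn at 0.1. Red points are the 25 members on the proximal tubule list, of which 24 lie under the lower 2-fold line, and Slc25a25 lies highest above the line of equality.

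The same ratios were split by transport group, beside 16.7% lower and 9.34% higher over all genes. Of 21 organic ion, bile acid, peptide and drug transporters 14 were called lower and 0 higher, with a median log2 ratio of -4.43. This group again counts Slc22a6, Slc22a8, Slc22a12 and Slc22a30, so it is not separate from the proximal tubule carriers above. Within the group Slc22a5, the carnitine transporter, differed little (1667 and 1343 counts), while Slc47a1, a drug exporter, had 1281 counts against 10. Of 25 ion and proton transporters 13 were lower and 1 higher, with a median of -1.02. Amino acid transporters had 11 of 23 lower and 2 higher. Nucleotide sugar transporters, which feed the Golgi, had 1 of 20 in each direction, with a median of -0.01. Of 32 mitochondrial carriers 6 were lower and 3 higher (median -0.18), and of 14 zinc transporters 2 were lower and 0 higher (-0.06).

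**Figure D2:**
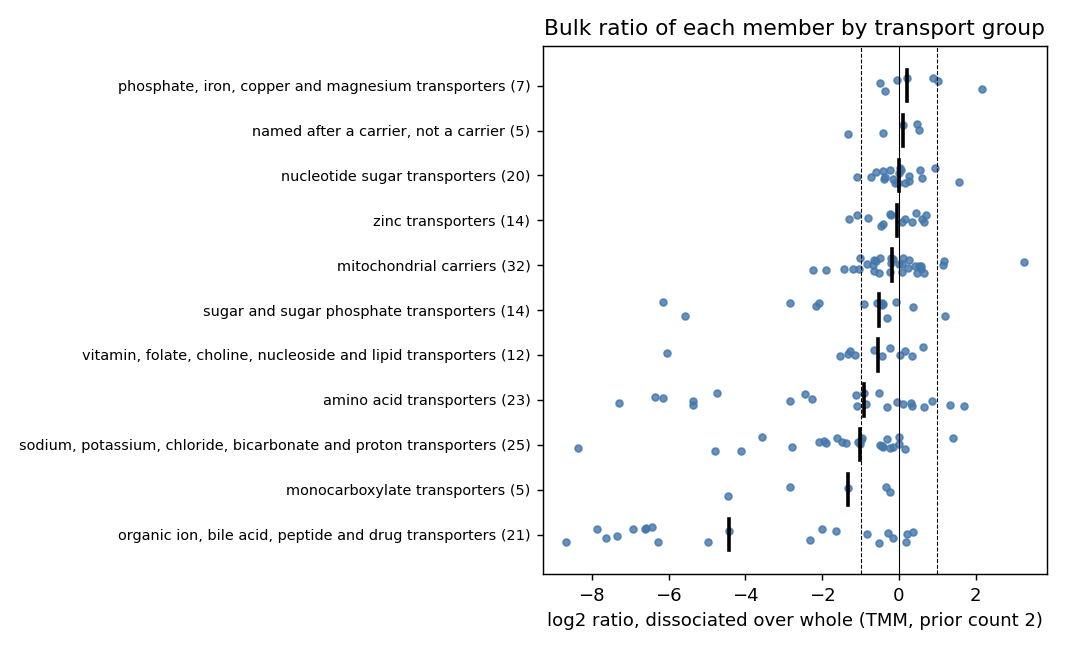
Log2 ratio of dissociated over whole for each member (points), by transport group with the number of members in brackets. Black bars are medians and dashed lines mark 2-fold. The organic ion group reaches furthest left, with a median of -4.43.

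Some members from glomerular cells were also lower. Slc12a2 went from 773 CPM in whole glomeruli to 65.6 in dissociated cells (log2 ratio -3.56), and Slc43a3 from 284 to 58.6 (-2.28). Both were highest in vascular types in the single cells, Slc12a2 in mural-like and Slc43a3 in endothelial-like cells. Marker genes of those types were lower as well, with median log2 ratios of -1.64 for 10 endothelial and -2.17 for 8 mural markers, and those of podocytes higher (1.07). Their part in the members' differences was not tested.

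Higher in dissociated cells were 10 members. Slc25a25, a calcium-regulated mitochondrial carrier of ATP-Mg and phosphate, had 30.5 CPM in whole glomeruli and 290 in dissociated cells (log2 ratio 3.25). The phosphate transporter Slc20a1 went from 64.5 to 290 CPM (2.17) and the neutral amino acid transporter Slc38a2 from 211 to 683 (1.69). Slc35b2, which carries the sulfate donor PAPS into the Golgi, differed by 1.56. The anion exchanger Slc26a7 (1.40), Slc3a2 (1.33), the glucose transporter Slc2a12 (1.21), Slc25a29 (1.17), Slc25a3 (1.15) and Slc31a2 (1.02) made up the rest. When libraries were scaled by total counts instead, 6 members were higher and 70 lower, and the median of all genes shifted by -0.30.

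Promoters were searched because Slc25a25 stood apart among these ratios. RefSeq promoters (GRCm38.p6, 250 bases before the start) matched 137 of the 178 members. The cAMP response element TGACGTCA was found on either strand in 3 of 137 members, 2.19%, against 1.77% of all 27025 genes in the promoter table. The shorter motif TGACG, which every such element contains, was in 36 of 137 (26.3%, against 19.8%), the AP-1 motif TGANTCA in 9 (6.57%, against 7.82%) and a longer motif of the tubule factor HNF1 in 0 (against 0.19%). These 4 motifs were all that were searched, they were chosen after the ratios were seen, and no test was made of the shares. A match is a description of letters and not a binding site. Both members called at 2-fold whose promoter held the full element are shown, with the element in capitals: Slc25a25, higher in dissociated cells (log2 ratio 3.25), and Slc38a6, an amino acid transporter that was lower (-1.11).
Slc25a25 (chr2:32424179-32424246, minus strand, element starting 150 bases before the start): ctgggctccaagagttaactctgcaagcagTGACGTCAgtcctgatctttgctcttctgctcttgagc
Slc38a6 (chr12:73286697-73286764, plus strand, element starting 121 bases before the start): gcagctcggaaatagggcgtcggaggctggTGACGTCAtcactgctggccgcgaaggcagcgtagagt
Among members with a promoter, the full element was in 1 of 9 higher, 1 of 49 lower and 1 of 79 between. TGACG was in 4 of 9 (44.4%), 8 of 49 (16.3%) and 24 of 79 (30.4%), and the AP-1 motif in 0, 4 and 5. The part of any motif in the ratios was not tested.

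In the single cells, the UMIs of each cell type were summed within a library, and each type was compared with the mean of the other 4 types (edgeR's quasi-likelihood test, Benjamini-Hochberg adjustment over 7506 genes, threshold 0.05). Of the 178 members, 175 were rows of the Drop-seq tables, 150 had at least 30 UMIs and 77 passed the filter on low counts. The 101 others were not tested. A member that passes the filter through 1 type only had to differ, so counts are set against all tested genes. Of the 77, 17 were higher and 22 lower in podocyte-like cells, where 22.1% and 24.0% of all tested genes were. In parietal epithelial-like cells 7 were higher and 9 lower (10.5% and 6.67% of all), and in endothelial-like cells 23 and 17 (29.6% and 20.1%). In mural-like cells 7 were higher and 9 lower (12.5% and 8.83%). In tubular-like cells 37 were higher and 15 lower (28.5% and 24.8%), with a median log2 fold of 0.67 over the 77 against -0.00 over all genes. No test was made of these shares against the background.

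Podocyte-like cells were higher than the mean of the other types in an anion exchanger and in copper, heme and magnesium transporters. Slc26a7, a chloride-bicarbonate exchanger, stood at 87.4, 115, 111 and 111 CPM in replicates 1 to 4. Its levels in endothelial-like, mural-like and tubular-like cells were at most 42.4 CPM, so podocyte-like libraries did not overlap with them (log2 fold 2.31 ± 0.19 SE, adjusted p = 4.2e-18). Slc31a2 was at 142, 169, 182 and 180 CPM (1.82 ± 0.14, adjusted p = 3.8e-19) and Slc48a1 at 301, 321, 280 and 333 CPM (1.22 ± 0.10, adjusted p = 1.7e-17). The magnesium transporter Slc41a2 (log2 fold 1.85), the fatty acid transport protein Slc27a3 (1.71), the acetyl-CoA transporter Slc33a1 (1.32) and the mitochondrial carrier Slc25a29 (1.10) were higher in 4 of 4 libraries too. Without replicate 3, which held every mural-like UMI of Slc41a2 and Slc25a29, their folds were 3.03 and 2.52. Slc30a2, a zinc transporter, was called higher at 22.2 CPM ± 4.30 (SD, n = 4), though tubular-like cells held 51.9 CPM and mural-like cells 0 UMIs, and against all other cells summed its log2 fold turned to -0.20 (adjusted p = 0.40). Lower in all 4 libraries were Slc4a3, a bicarbonate exchanger (1.12 CPM, log2 fold -3.96), Slc12a2 (5.18 CPM, -3.50), Slc35g1 (0.753 CPM, -2.95) and Slc16a7, a monocarboxylate transporter (4.30 CPM, -2.71). Without replicate 1 the log2 fold of Slc12a2 was -2.37 with an adjusted p of 1, and without replicate 4 that of Slc35g1 was -0.25 with an adjusted p of 0.89. As a reference for free RNA, Slc12a3, the salt cotransporter of the distal convoluted tubule, was at 32.9 CPM in podocyte-like and 3313 in tubular-like cells.

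Parietal epithelial-like cells were higher in the taurine transporter and in copper, magnesium, heme and iron transporters. Slc31a2 was at 131, 153, 178 and 256 CPM, a range that overlaps with the podocyte-like libraries (log2 fold against the mean of the other types 1.81 ± 0.24, adjusted p = 2.1e-09). Slc41a2 (2.29), Slc48a1 (0.92), Slc26a7 (1.15) and Slc9a3r2 (0.51) were higher in 4 of 4 libraries too, and without replicate 3 the fold of Slc41a2 was 3.25. Slc6a6, the taurine transporter, was at 336, 391, 496 and 745 CPM (1.44 ± 0.15, adjusted p = 6.5e-13), above all podocyte-like libraries, which lay between 184 and 207 CPM. Slc25a37, a mitochondrial iron carrier, was higher by 0.97. The call for Slc26a7 was lost without replicate 1 (adjusted p = 0.052) or 3 (0.12), and that for Slc25a37 without replicate 3 (0.21). Lower were Slc12a2 (-3.94, 2 UMIs), Slc16a7 (-2.94, 2 UMIs), Slc39a6, a zinc transporter (-2.52, 2 UMIs), and Slc1a5, a glutamine transporter with 0 UMIs. All UMIs of Slc12a2 and Slc39a6 in these cells came from replicate 1, and without replicate 4 the fold of Slc16a7 was -3.68. For Slc39a6 the adjusted p was 0.068 without replicate 3 and 0.072 without replicate 4. Podocyte markers held 1.45% of UMIs in these cells, and their part in these calls was not tested. Compared with all other cells summed, 1 of 111 tested members was called higher (207 of 10574 genes in all), and Slc26a7, Slc48a1 and Slc9a3r2 turned to -0.64, -0.047 and -0.29.

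Endothelial-like cells had 6 of 9 tested members of amino acid transporter families higher and 0 lower, where 29.6% and 20.1% of all tested genes were. Such group counts rest on few members. Slc43a3, counted there by its family, was at 167, 189, 192 and 255 CPM, against 30.6 CPM in the highest library of any other type (log2 fold 5.95 ± 0.28, adjusted p = 5e-32). Slc6a6 was at 499, 620, 609 and 753 CPM (2.15 ± 0.11, adjusted p = 3.1e-30), overlapping with parietal epithelial-like cells. The scaffold gene Slc9a3r2 reached 1030, 1260, 939 and 1110 CPM, above every library of every other type (2.49 ± 0.10, adjusted p = 4.2e-37). Slc12a2 was at 264 CPM ± 77.9 (SD, n = 4; log2 fold 3.71), the choline transporter-like Slc44a2 at 120 ± 6.59 (2.76), the zinc exporter Slc30a1 at 59.1 ± 13.3 (2.48) and Slc35e4 at 32.7 ± 9.98 (2.47). Slc1a5 (90.7 CPM) and Slc16a13 (42.0 CPM) were higher while at 0 UMIs in parietal epithelial-like cells. Slc20a1 was at 172 CPM (1.52) and Slc38a2 at 318 CPM (0.89), and both were also among the largest bulk differences. Of 21 mitochondrial carriers 1 was higher and 9 lower (29.6% and 20.1% of all tested genes). Lower in all 4 libraries were Slc4a3 (-2.31), Slc25a23 (-2.06), the glucose transporter Slc2a1 (-1.90) and Slc16a7 (-1.65). The folds moved by over 1.5 times to 6.90 for Slc43a3 without replicate 3, to 5.03, 3.58 and -3.13 for Slc12a2, Slc35e4 and Slc4a3 without replicate 1, and to -2.84 for Slc25a23 without replicate 4. For Slc16a7 the adjusted p without replicate 4 was 0.13, and without replicate 4 11 members instead of 17 were lower. Of all 7490 genes tested without replicate 4, 1271 were lower.

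**Figure D3:**
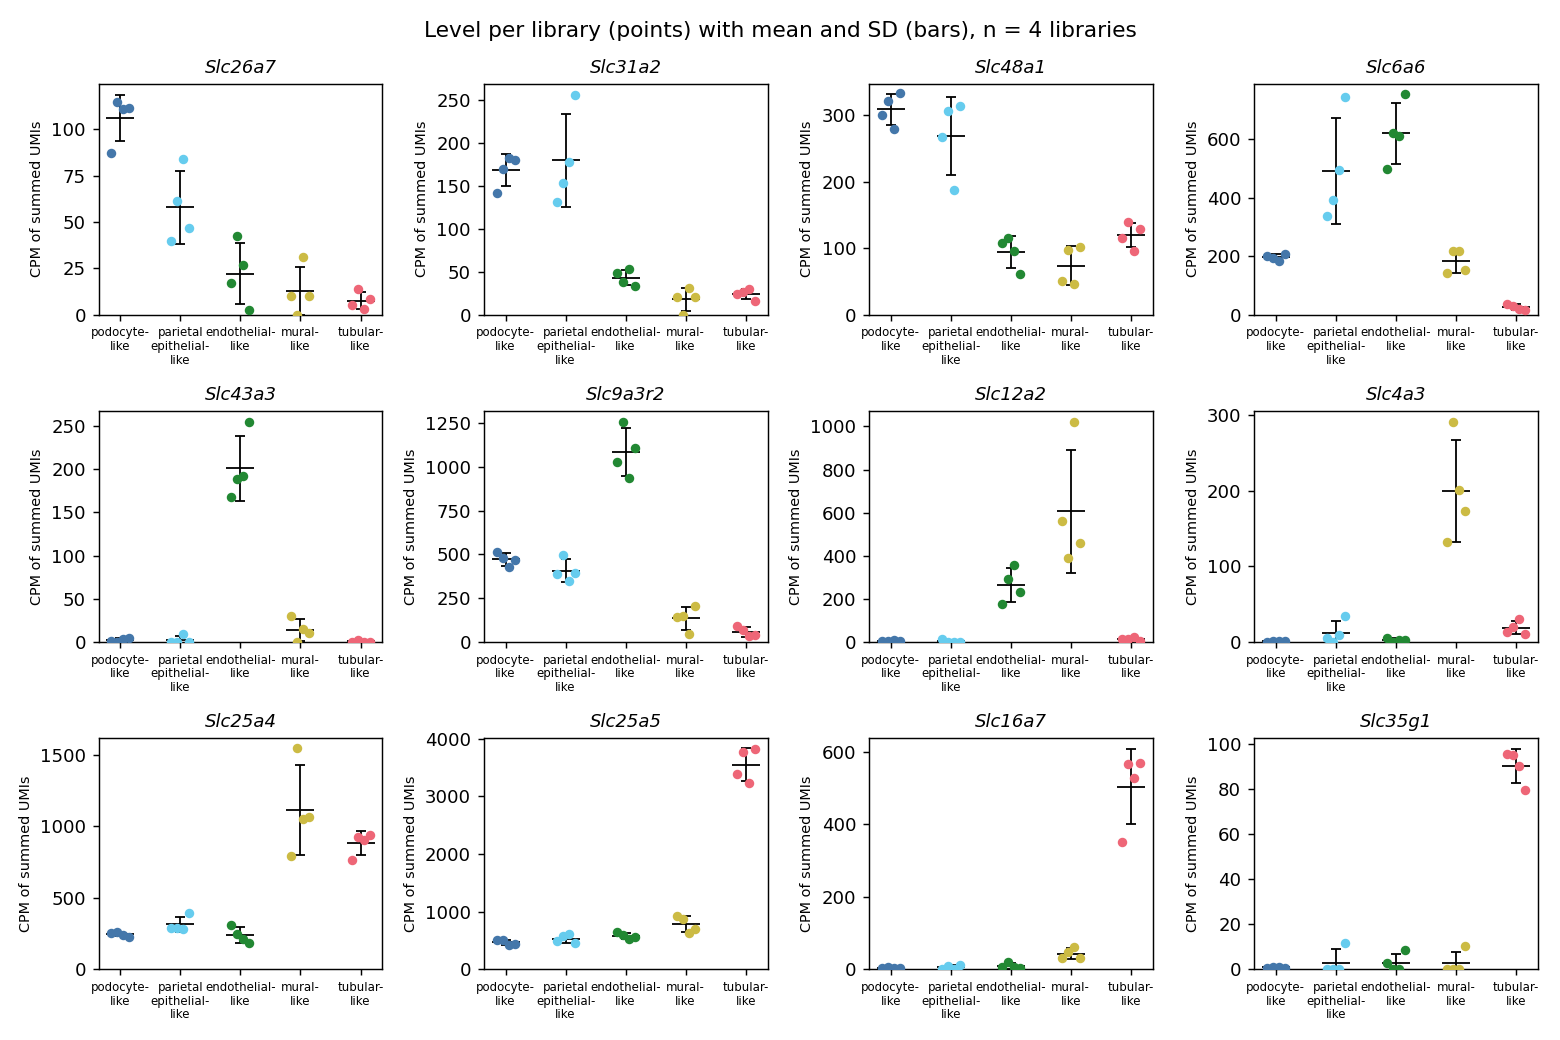
CPM of summed UMIs for 12 members in each of the 4 Drop-seq libraries (points) by cell type, with mean and SD as bars. Slc43a3 and Slc9a3r2 are highest in endothelial-like cells, Slc4a3 and Slc12a2 in mural-like cells, and Slc25a5, Slc16a7 and Slc35g1 in tubular-like cells.

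In mural-like cells 4 of 7 tested ion and proton transporters were higher and 0 lower (12.5% and 8.83% of all tested genes). The group's summed level was 1065 CPM ± 250 (SD, n = 4), of which Slc12a2 held 607 and Slc4a3 199. The group lacks Slc12a1 and Slc12a3, which the rule leaves out, and Slc12a3 alone was at 3313 CPM in tubular-like and 61.8 in mural-like cells. Slc12a2 was at 561, 388, 1022 and 458 CPM, above the highest endothelial-like library at 356 (log2 fold 5.04 ± 0.23, adjusted p = 4.5e-33). Slc4a3 was at 133, 291, 201 and 173 CPM, against at most 34.9 CPM in any other library (5.08 ± 0.40, adjusted p = 3.6e-19). Slc25a4 was at 795, 1552, 1053 and 1069 CPM (1.45 ± 0.12, adjusted p = 5.1e-17), and Slc25a3 was higher by 0.43. Slc25a25 was at 118 CPM ± 35.2 (1.09), but without replicate 4 its adjusted p was 0.22, and the number of members higher fell from 7 to 4. Without replicate 3 the number lower was 5 instead of 9. Of all tested genes, 728 of 7490 were higher without replicate 4 and 525 of 7698 lower without replicate 3. Lower were Slc31a2 (-2.04), Slc5a3, the myo-inositol transporter (-3.03, 4 UMIs), Slc38a10 (-1.96, 4 UMIs) and Slc30a2, with 0 UMIs. The fold of Slc12a2 was 6.20 without replicate 1, and all UMIs of Slc5a3 in these cells came from replicate 4. The call for Slc30a2 was lost without any 1 replicate (adjusted p = 0.057 to 0.12), that for Slc38a10 without replicate 3 (0.074) and that for Slc25a3 without replicate 4 (0.062).

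Tubular-like cells held the most carrier transcript, 10332 CPM ± 594 (SD, n = 4) summed over the 166 members with a value. Endothelial-like cells held 7226 ± 277, mural-like 7200 ± 758, parietal epithelial-like 6028 ± 516 and podocyte-like 5573 ± 222. Mitochondrial carriers made up most of the tubular-like sum, at 6958 CPM ± 449 (SD, n = 4). Their level was 3638 ± 531 in mural-like, 2125 ± 120 in parietal epithelial-like, 1877 ± 177 in endothelial-like and 1876 ± 104 in podocyte-like cells. Of these carriers 15 of 21 tested were higher and 3 lower (28.5% and 24.8% of all tested genes). Slc25a5 was at 3392, 3776, 3227 and 3817 CPM, above every other library (log2 fold 2.97 ± 0.07, adjusted p = 2.4e-51). Slc25a3 was at 1129, 1284, 1288 and 1337 CPM (1.44 ± 0.08, adjusted p = 2.7e-28), and Slc25a16, a carrier linked to coenzyme A, was higher by 2.58. Slc16a7 was at 351, 567, 530 and 570 CPM, against at most 61.9 in any other library (6.14 ± 0.16, adjusted p = 5.8e-50). Slc35g1 was at 95.9, 95.5, 90.3 and 79.9 CPM (5.75 ± 0.35, adjusted p = 4.1e-26), and its fold was 8.13 without replicate 4, which held all its parietal epithelial-like and mural-like UMIs. Slc8a1, a sodium-calcium exchanger (65.4 CPM), Slc43a2 (53.9 CPM), the fatty acid transporter Slc27a1 (38.5 CPM) and Slc30a2 (51.9 CPM) were higher, with another type at 0 UMIs. Lower were Slc6a6 (-3.17), Slc25a24 (-2.92), Slc9a3r2 (-2.46) and Slc27a3 (-2.29). Mitochondrial UMIs held a median of 13.9% in these cells against 4.26% in podocyte-like cells, and their depth was 1713 against 1016 UMIs per cell. The part of these in the carriers' levels was not tested. With a limit of 10% mitochondrial UMIs, 19 members were tested and 5 were higher, where 446 of all 2699 genes tested were. Proximal tubule markers held 0.0026% of UMIs in tubular-like cells, against 0.786% for distal convoluted and 0.485% for thick ascending limb markers. Of the members on the proximal tubule list 0 were tested, so these results do not cover the proximal carriers.

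**Figure D4:**
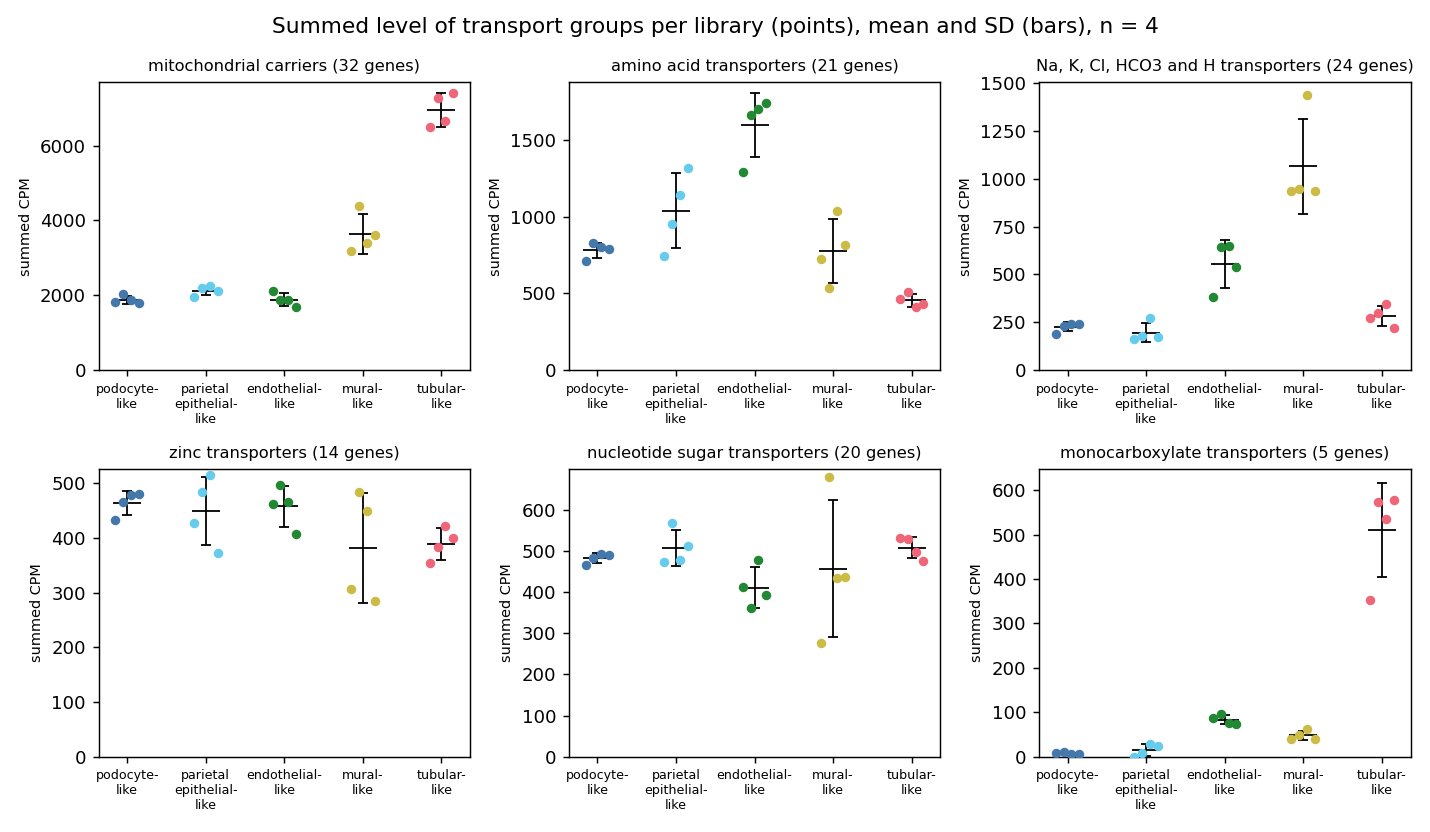
Summed CPM of 6 transport groups in each Drop-seq library (points) by cell type, with mean and SD as bars. Mitochondrial carriers are highest in tubular-like cells and ion transporters, without Slc12a1 and Slc12a3, in mural-like cells. Amino acid transporters have their highest mean in endothelial-like cells. Their lowest library there, at 1291 CPM, lies under a parietal epithelial-like library at 1316 CPM. Zinc and nucleotide sugar transporters overlap between types too.

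**Figure D5:**
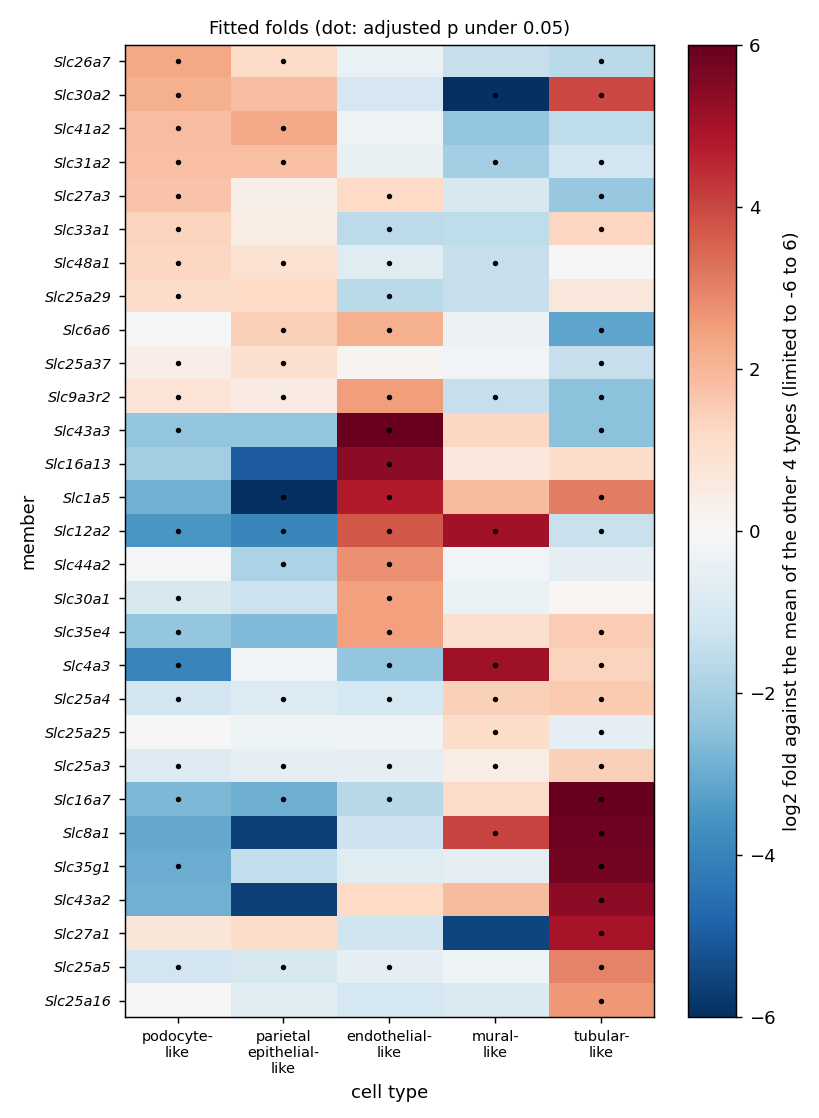
Fitted log2 folds of 29 members named as higher in a type, against the mean of the other 4 types, with colours limited to -6 and 6. A dot marks an adjusted p under 0.05. Slc12a2 is higher in endothelial-like and mural-like cells and lower in the other types.

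Tubular-like cells were divided again into subclusters, of which 3 had enough cells for a test of 2505 genes, 19 of them members. One carried connecting tubule and principal cell markers (144 cells, 9 of them in replicate 4), and the unnamed others had 572 and 178 cells. In the connecting and principal subcluster 3 members were higher and 2 lower (6.03% and 7.39% of all tested genes). Slc29a1, a nucleoside transporter (log2 fold 1.69), Slc31a1, a copper importer (1.54), and Slc35g1 (1.54) were higher, and Slc5a3 (-1.50) and Slc16a7 (-0.83) lower. In the largest subcluster 6 were higher and 3 lower (13.5% and 11.4%), with Slc16a7 at 473, 813, 679 and 677 CPM (1.47 ± 0.18 SE) and Slc25a5 (0.71) among the higher. In the subcluster of 178 cells 2 were higher and 7 lower (15.9% and 13.2%). Those 2, Slc9a3r2 (3.53) and Slc48a1 (1.17), are members that podocyte-like cells also hold, and podocyte markers made up 1.11% of UMIs there against 0.0455% in the largest subcluster. Their part in these calls was not tested. These counts rest on few members and single libraries. Leaving out 1 replicate gave 0 to 4 higher and 0 to 4 lower in the connecting and principal subcluster, 2 to 8 and 0 to 4 in the largest, and 0 to 4 and 2 to 10 in that of 178 cells, where 7 to 43 members were tested. The same fits over all genes gave 86 to 168 and 82 to 203, 143 to 379 and 153 to 272, and 169 to 549 and 95 to 387. They tested 1143 to 4077 genes. Without replicate 2, 0 of 7 members were higher in the connecting and principal subcluster and 0 in that of 178 cells. Of 1143 genes, 86 and 169 were. In 52 intercalated-like cells, too few to test, the anion exchanger genes Slc4a9 and Slc26a4 were at 663 CPM (exact Poisson interval 507 to 851, counting error only) and 380 CPM (265 to 529). These 2 genes were chosen after their values were seen.

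Among members, the pattern most like that of Slc25a3 over the 20 sums of 4 libraries and 5 types was Slc25a4 (Pearson r = 0.93 of log2 CPM), then Slc16a7 (0.88). For Slc9a3r2 it was Slc6a6 (0.84) and Slc20a1 (0.78), and for Slc25a5 Slc16a7 (0.89) and Slc25a3 (0.86). The 20 points share libraries and depth, and the values describe likeness only.

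Lists of related transporter genes outside the Slc rule gave a wider view. Of 11 tested sodium pump and partner genes, 6 were higher in tubular-like cells and 3 lower (28.5% and 24.8% of all tested genes). In mural-like cells 4 of the 11 were higher and 3 lower (12.5% and 8.83% of all tested genes). Among the higher was Atp1b2 (4.11), a pump subunit that was lower in podocyte-like, endothelial-like and tubular-like cells. The mitochondrial pyruvate carrier genes Mpc1 and Mpc2, carriers under other symbols, were higher in tubular-like cells by 2.23 and 2.47 and lower in endothelial-like cells (-1.24 and -1.59). Of 15 such carriers under other symbols, 8 were higher in tubular-like cells and 1 lower (again beside 28.5% and 24.8%). Of 5 ATP-binding cassette transporters 2 were higher in podocyte-like cells and 3 lower (22.1% and 24.0% of all tested genes). Their median log2 fold was -0.48, with the lipid transporter Abca2 at 1.74 among the higher.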

How the data were processed

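Drop-seq values were UMI counts per gene and barcode and bulk values were read counts per gene, both made by the authors before they were deposited. STAR and HTSeq stand in the submitters' processing notes, without versions. The genome build, annotation and strand setting are not given in the sources used here, so overlapping genes and near-identical copies may share counts. Per the labels' protocols the bulk libraries used a stranded TruSeq kit. HTSeq's summary lines (9.68% of whole and 6.14% of dissociated reads on no gene) stayed out of totals.

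The members, transport groups and lists were chosen with earlier results of these data known. Cells with at least 300 genes and at most 20% mitochondrial UMIs were clustered without any Slc row (scanpy 1.11.5, 2000 variable genes, 30 components, 15 neighbours, Leiden resolution 1.0, tubular-like cells again on 1000 genes at 0.5) and clusters were named from marker lists. The authors' cell labels were not used here, so types are rebuilt, and no doublets were removed. Mixed cells, with at least 2 markers of each of 2 types, were left out in an alternative. They made up 34.4% of tubular-like, 29.6% of endothelial-like and 28.0% of mural-like cells. In parietal epithelial-like cells the share was 8.21% and in podocyte-like cells 4.10%. UMIs were summed per library and type (at least 20 cells in 3 libraries) and fitted with edgeR 4.0.16 (TMM, quasi-likelihood, library as a block) on R 4.3.3, with adjustment over all genes. Library is a block because the sums of all types in 1 library share that library. The log2 ratio of the bulk libraries used TMM-scaled CPM and a prior count of 2. Exon lengths came from GENCODE annotation of GRCm38. Intervals cover counting error only. The fits were also run on simulated counts drawn from a profile that all types shared, unlike the data. No result here rests on that run.

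Named members were, by rule, the 10 highest per length and the 10 largest differences each way in bulk, up to 8 higher and 4 lower per type (in every library), up to 6 higher per subcluster, 4 per transport group by counts and 3 on each side of the threshold. Items that this rule would name but that are withheld are not reported here. Chosen after seeing the data were the rule for close marker scores (within 0.15), the parietal score minimum of 0.25, numbers in place of names for subclusters whose leading genes went against a segment, the 30 UMI minimum, the 5 genes named after a carrier, the 4 motifs, and Slc38a6. Alternatives included DESeq2 1.42.0, other filters and each replicate left out.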

Additional observations from a re-analysis of the deposited data

Results flagged for a closer look

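Among 36 pairs of a member and the type it was higher in, 2 had 1 library far from the other 3 (gap over range above Dixon's critical value for 4 libraries), and chance flags about 1 in 20. Both were in podocyte-like cells of replicate 1. Slc26a7 was at 87.4 CPM there against 111 to 115 in the others (gap over range 0.863). Slc41a2 was at 25.5 CPM against 37.1 to 39.4 (0.834). Both were higher in that library than in the mean of the other types.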

How the results depend on the processing

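Of 198 counts of called members under an alternative, 147 stayed within 1.5 times the main count, and where one moved the cause was not tested apart from the number of members tested. A mitochondrial limit of 10% left 19 members testable and gave, higher and lower, 5 and 6 (podocyte-like), 4 and 5 (parietal epithelial-like), 9 and 7 (endothelial-like), 4 and 5 (mural-like) and 5 and 3 (tubular-like cells). Of all 2699 genes tested under that limit, the calls in the same order were 745 and 682, 311 and 211, 819 and 848, 494 and 304, and 446 and 367. At least 500 genes per cell (44 tested) gave 10 and 13 in podocyte-like cells, 4 higher in parietal epithelial-like, 13 and 11 in endothelial-like, 5 lower in mural-like and 22 higher in tubular-like cells. Of all 5392 genes tested there, 1376 and 1161 were called in podocyte-like and 1378 and 873 in endothelial-like cells. Another 537 were higher in parietal epithelial-like, 428 lower in mural-like and 1501 higher in tubular-like cells. Without mixed cells (36 tested) 10 were lower in podocyte-like, 9 higher and 11 lower in endothelial-like and 14 higher in tubular-like cells. Of all 4812 genes tested then, 1069 were lower in podocyte-like, 1410 higher and 1280 lower in endothelial-like and 1352 higher in tubular-like cells. With no filter on low counts (166 tested) the numbers higher were 40 (podocyte-like), 4 (parietal epithelial-like) and 61 (tubular-like cells). Of all 21969 genes tested that way, 4326, 638 and 3873 were higher there. Against all other cells summed, 46 of 123 tested were lower in podocyte-like, 33 of 117 in endothelial-like and 23 of 129 in tubular-like cells. Over all genes, 3171 of 11378, 2951 of 10815 and 2938 of 11533 were lower there. In parietal epithelial-like cells 1 of 111 was higher, against 207 of 10574 genes. In this comparison log2 folds turned to -0.20 for Slc30a2 in podocyte-like cells. They turned to -0.64, -0.047 and -0.29 for Slc26a7, Slc48a1 and Slc9a3r2 in parietal epithelial-like cells. Slc9a3r2 there was at -0.071 under the 10% limit. DESeq2 gave 44 of 154 tested lower in podocyte-like cells, 11 higher and 5 lower of 149 in mural-like cells and 4 higher of 96 in the subcluster of 178 cells. Over all genes, DESeq2 called 3323 of 15154 lower in podocyte-like cells and 598 of 8732 higher in that subcluster. In mural-like cells it called 1435 higher and 409 lower of 14302.

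Leaving out 1 replicate gave 11 to 16 lower in endothelial-like cells, 4 to 8 higher and 5 to 8 lower in mural-like cells, 0 to 4 higher and 0 to 4 lower in the connecting and principal subcluster, 2 to 8 and 0 to 4 in the largest subcluster and 0 to 4 and 2 to 10 in that of 178 cells. Of all 7490 to 7799 genes tested, leaving out 1 replicate gave 1271 to 1423 lower in endothelial-like cells. In mural-like cells it gave 728 to 938 higher and 521 to 620 lower. With no replicate block in place of the paired fit, 37 were higher and 13 lower in tubular-like cells and 15 and 21 in podocyte-like cells, and 0 of 16 counts moved past 1.5 times. Of all 7506 genes, that fit called 2074 and 1768 in tubular-like and 1464 and 1615 in podocyte-like cells. The calls for Slc26a7 in parietal epithelial-like cells (adjusted p = 0.055) and Slc30a2 in mural-like cells (0.050) were lost without the block. Of 67 named folds, 47 kept their call in every alternative that gave a value. In bulk, total-count scaling gave 6 higher, and members with at least 1000 counts gave 6 higher and 23 lower. For neither was the share over all genes taken, so these counts have no background to be read against. Resolution 1.0 for the subclusters was not run, since the connecting and principal subcluster then lacked 20 cells in 3 libraries.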
